A study of Mus musculus with 10 samples.

Results

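Krt7, Krt19, Epcam, Sox9, Cd24a, Prom1 and Cftr are genes of cholangiocytes, the cells that line the bile ducts, and of the ductular cells that appear when ducts expand. They were taken by name from the gene count table of mouse liver, where they make up 7 of 24411 genes. The table holds 10 liver libraries, 5 from mice given Mboat7 ASO (replicates 6 to 10) and 5 from mice given Control ASO (replicates 1 to 5). An ASO (antisense oligonucleotide) is a short modified strand that directs the breakdown of the RNA it matches. The Control ASO was a non-targeting strand. All mice were male C57Bl6/J, 8 weeks old at the start, ate a high fat diet and received their ASO by intraperitoneal injection at 12.5 mg/kg for 20 weeks. The labels limit what the groups stand for. The study used more than one ASO against Mboat7 and the labels do not say which was given here, and such ASOs act in adipose tissue and phagocytic cells as well as in hepatocytes. The labels call the Mboat7 ASO tissue severe fatty liver and the Control ASO tissue normal liver. Each library carries a number of its own, but no label states that it came from a separate animal, so p-values measure the spread between these libraries.

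Cholangiocytes are a small epithelial population beside the hepatocytes, and they modify bile by secreting chloride, bicarbonate and water. When the liver is injured, cells with duct markers can multiply around the portal tracts, a change known as ductular reaction. Its markers include the duct keratins, the transcription factor Sox9, and the surface proteins Epcam, Cd24a and Prom1. None of these marks cholangiocytes alone. Krt7 and Krt19 are also keratins of the mesothelium that covers the liver, Cd24a is abundant on neutrophils, B cells and erythroid precursors, and Sox9 is found in some periportal hepatocytes and in activated stellate cells.

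Cd24a is the member the results turn on, so its coding sequence is shown first. Cd24a lies on the plus strand of chromosome 10 (GRCm38, chr10:43578284-43584265). Its coding bases, 231 in all or 76 codons before the stop, fall between 43579254 and 43582765. The sequence, spliced from the longest coding GENCODE transcript and written 5′ to 3′, has in capitals each base that lies in a stretch of 50 bases found also in another annotated transcript.
Cd24a: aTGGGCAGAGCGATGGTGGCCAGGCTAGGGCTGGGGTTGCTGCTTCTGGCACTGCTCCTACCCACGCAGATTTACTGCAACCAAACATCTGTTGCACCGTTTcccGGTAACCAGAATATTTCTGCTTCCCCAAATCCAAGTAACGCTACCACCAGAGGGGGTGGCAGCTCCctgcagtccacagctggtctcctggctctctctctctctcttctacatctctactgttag
The other transcript is that of Gm6212, a processed pseudogene on chromosome 14 (119644012 to 119644231). The capitals cover 167 of the 231 coding bases, and 69 of the 1767 possible 50-base reads of the whole transcript (3.90%) are shared, because most of the transcript is untranslated sequence that is not shared. A 50-base read from a shared stretch has more than 1 place in the genome. For the other members the shared fraction was 0% (Krt19, Epcam, Sox9 and Prom1), 0.222% (Krt7) and 1.34% (Cftr, with an antisense gene). Antisense or other genes overlap Krt7, Prom1 and Cftr, so their values hold that uncertainty, since the sources used here do not give the strand setting of the counting.

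Library totals lay between 26232977 and 28791798 counts in Mboat7 ASO livers and between 25153235 and 27912213 counts in Control ASO livers. Mboat7 itself averaged 3.31 ± 1.005 CPM (counts scaled to a common library size, with the upper-quartile factor applied) in Mboat7 ASO livers and 40.8 ± 2.90 CPM in Control ASO livers (SD, n = 5 each), and the groups did not overlap. Of 12609 genes that reached 1 CPM in at least 1 library, edgeR's quasi-likelihood test at an adjusted p of 0.05 called 21.2% higher and 17.3% lower in Mboat7 ASO livers, 38.5% in all. The share called with a change over 2-fold was 7.10%, and 21.2% of the genes kept had CPM ranges that did not overlap between the groups. The median log2 fold change of the genes kept was 0.01.

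Of the 7 duct genes, 6 passed the filter on low counts and Cftr did not. Only Cd24a rose in Mboat7 ASO livers, and none of the 6 fell by edgeR, by DESeq2 or by limma-voom, nor at an unadjusted p of 0.05 by any of them. By limma-voom Cd24a was not called either. This count of 1 in 6 stands beside a background of 21.2% of genes that rose. The median log2 fold change of the 6 genes was -0.18. No gene of the 7 had groups that did not overlap. In bulk tissue, fewer cells of a type and less RNA per cell cannot be told apart.

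**Figure D1:**
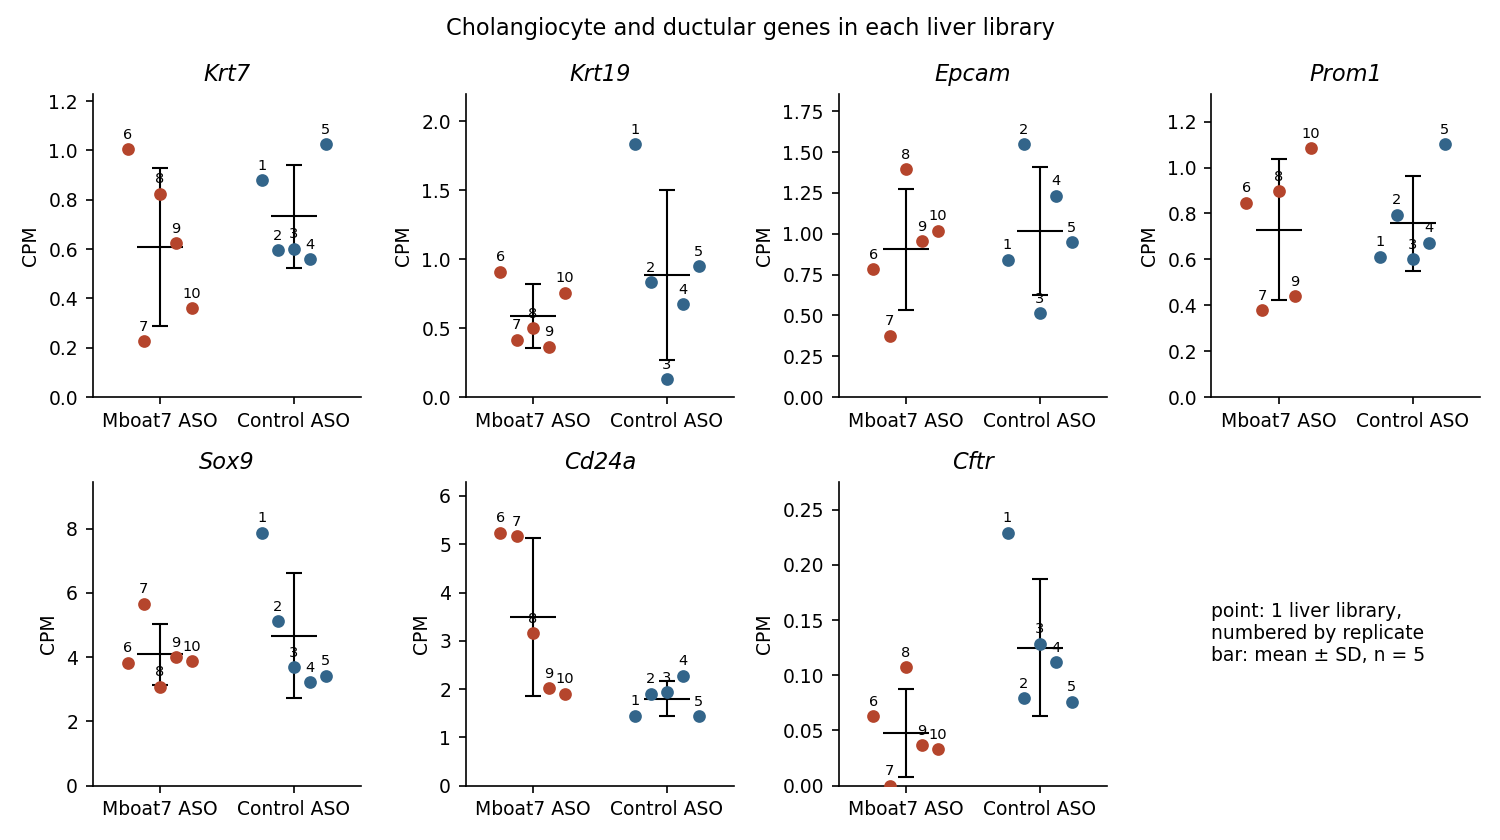
CPM (vertical axes, each starting at 0) of the 7 cholangiocyte and ductular genes in 5 Mboat7 ASO libraries (left, red) and 5 Control ASO libraries (right, blue), each point a library numbered by replicate, with the mean and SD. Cd24a stands above every Control ASO library in replicates 6, 7 and 8, whereas the points of the other genes overlap.

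The keratins come first, since Krt7 and Krt19 form the intermediate filaments by which bile ducts are usually recognised. Krt19 pairs with type II keratins as the type I partner. Krt19 had 29, 11, 14, 10 and 23 counts in Mboat7 ASO replicates 6 to 10 and 48, 21, 3, 18 and 25 counts in Control ASO replicates 1 to 5. Every Mboat7 ASO library lay within the Control ASO range, which was set by replicate 1 at the top and replicate 3 at the bottom. The means were 0.590 ± 0.234 CPM in Mboat7 ASO livers and 0.884 ± 0.618 CPM in Control ASO livers (SD, n = 5 each). The log2 fold change was -0.58 ± 0.50 (SE), with a 95% interval of -1.68 to 0.53 and an adjusted p of 0.384. Its interval is the widest of the 6 genes kept.

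Krt7, a type II keratin of ducts and other simple epithelia, had 32, 6, 23, 17 and 11 counts in Mboat7 ASO livers and 23, 15, 14, 15 and 27 counts in Control ASO livers. Replicates 7 and 10 lay below every Control ASO library and the other 3 within their range. Krt7 averaged 0.608 ± 0.320 CPM in Mboat7 ASO livers and 0.733 ± 0.208 CPM in Control ASO livers. The log2 fold change of -0.26 ± 0.38 (interval -1.10 to 0.58) did not pass the test (edgeR, adjusted p = 0.611). The intervals of both duct keratins reach below 0.5 times the Control ASO level, with lower ends of 0.312 for Krt19 and 0.467 for Krt7, so these data do not exclude a loss of that size.

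Mesothelial genes varied from library to library, in part as these keratins did. In Mboat7 ASO livers the 7 measured mesothelial genes summed to 6.94, 2.26, 5.59, 4.11 and 3.06 CPM in replicates 6 to 10, and Krt7 was highest in replicates 6 and 8 and lowest in replicate 7. Krt19 was 0.910, 0.415, 0.502, 0.367 and 0.756 CPM in the same libraries, so its order did not follow the mesothelial sum beyond replicate 6. They summed to 16.6 and 12.3 CPM in Control ASO replicates 1 and 5, and to between 2.47 and 3.69 CPM in the other Control ASO libraries. Replicates 1 and 5 were also the Control ASO libraries with the most Krt7 (0.879 and 1.03 CPM) and the most Krt19 (1.83 and 0.950 CPM). The defining marker Msln had 49, 1, 42, 26 and 22 counts in Mboat7 ASO livers and 114, 18, 12, 12 and 57 counts in Control ASO livers. Upk3b had 1 to 37 counts in Mboat7 ASO livers and 3 to 119 counts in Control ASO livers. Of the mesothelial genes 5 passed the filter and 0 were called in either direction by edgeR, DESeq2 or limma-voom, nor at an unadjusted p of 0.05, with a median log2 fold change of -1.18. Wt1 and Upk1b failed the filter and were not tested. Wt1 had 3 to 8 counts in Mboat7 ASO livers and 8 to 21 counts in Control ASO livers, and its CPM ranges did not overlap. Upk1b had 1 to 10 counts in Mboat7 ASO livers and 0 to 14 counts in Control ASO livers. The part of mesothelial RNA in the keratin values was not tested.

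**Figure D2:**
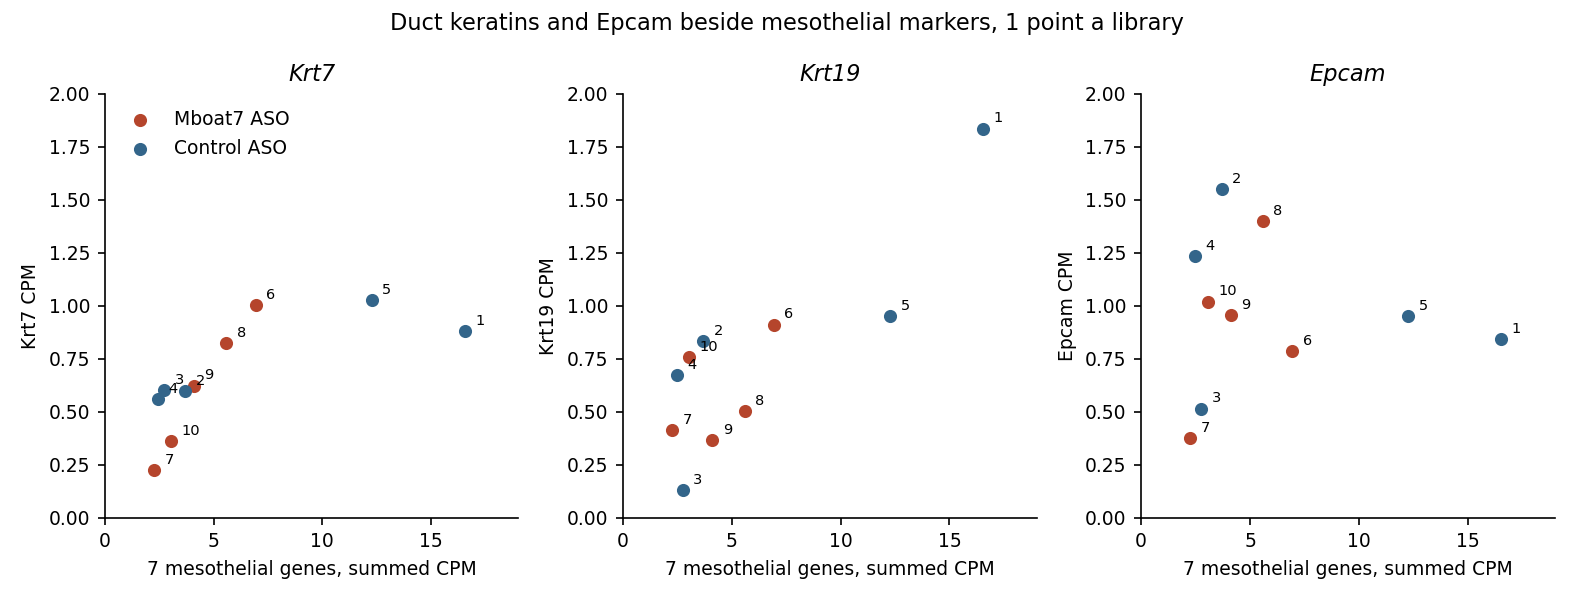
CPM of Krt7, Krt19 and Epcam (vertical axes) against the summed CPM of 7 mesothelial genes (horizontal axes), with a numbered point for each Mboat7 ASO library (red) and each Control ASO library (blue). Control ASO replicates 1 and 5, at 16.6 and 12.3 CPM of mesothelial genes, hold the most Krt7 and Krt19 of the Control ASO libraries, whereas Epcam is highest in Control ASO replicate 2.

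The surface proteins of duct cells differed among themselves. Epcam, an adhesion molecule of most epithelia that adult hepatocytes largely lack, had 25, 10, 39, 26 and 31 counts in Mboat7 ASO livers and 22, 39, 12, 33 and 25 counts in Control ASO livers. The summed counts were the same, 131 in Mboat7 ASO livers and 131 in Control ASO livers. Its means were 0.906 ± 0.371 CPM in Mboat7 ASO livers and 1.02 ± 0.393 CPM in Control ASO livers. The log2 fold change was -0.17 ± 0.36 (interval -0.95 to 0.62, adjusted p = 0.732).

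Prom1, a pentaspan membrane protein of surface protrusions that is used as a marker of progenitor cells, had 27, 10, 25, 12 and 33 counts in Mboat7 ASO livers. Control ASO livers had 16, 20, 14, 18 and 29 counts. Replicates 7 and 9 lay below every Control ASO library. Prom1 averaged 0.729 ± 0.307 CPM in Mboat7 ASO livers and 0.756 ± 0.208 CPM in Control ASO livers, with a log2 fold change of -0.05 ± 0.33 (interval -0.76 to 0.67, adjusted p = 0.922).

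Krt7, Krt19, Epcam and Prom1 together had 113, 37, 101, 65 and 98 counts in Mboat7 ASO replicates 6 to 10 and 109, 95, 43, 84 and 106 counts in Control ASO replicates 1 to 5. A library with few duct reads was thus present in each group, replicate 7 among the Mboat7 ASO livers and replicate 3 among the Control ASO livers. In replicate 7 Krt7, Krt19, Epcam and Prom1 stood at 0.309, 0.470, 0.371 and 0.499 times their Control ASO means. In Control ASO replicate 3 Krt19 stood at 0.146 and Epcam at 0.506 times the mean, while Krt7 (0.821) and Prom1 (0.795) were nearer to it. The spread of Krt7 between Mboat7 ASO libraries, a coefficient of variation of 52.7%, was larger than the 23.7% that counting alone gives at these depths, and for Krt19 in Control ASO livers it was 69.9% against 20.9%.

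**Figure D3:**
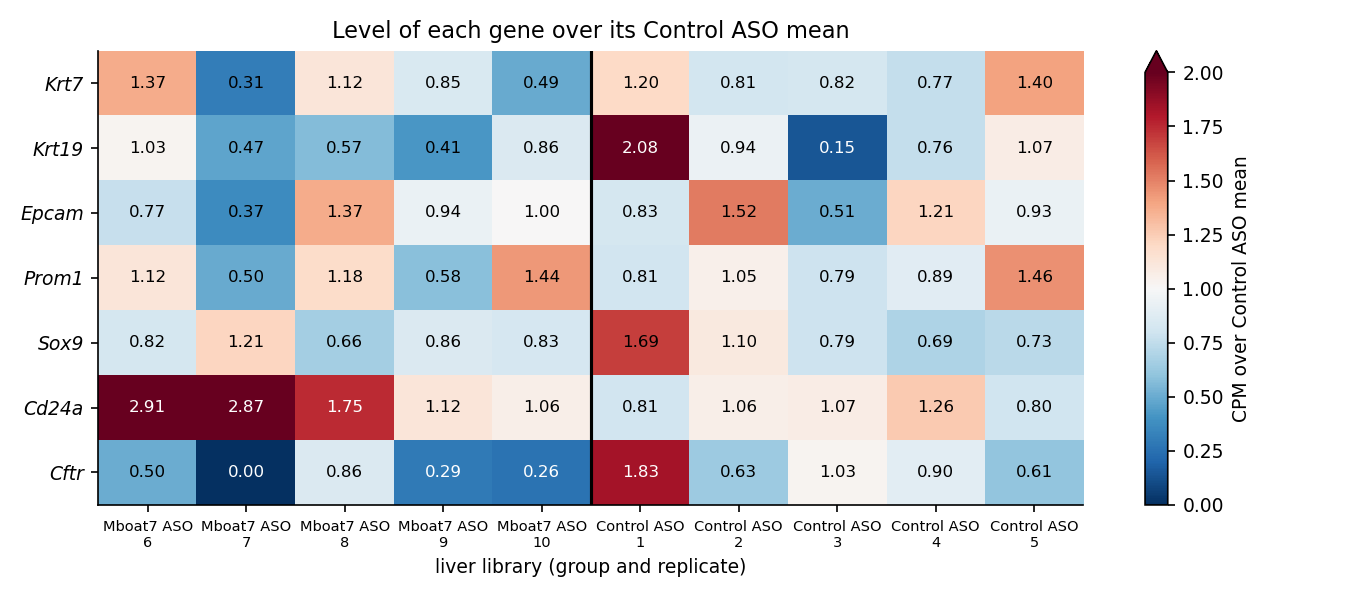
Level of each gene (rows) in each library (columns, 5 Mboat7 ASO on the left and 5 Control ASO on the right) as a multiple of its Control ASO mean CPM, printed in the cell and coloured up to 2. Cd24a reads 2.91, 2.87 and 1.75 in Mboat7 ASO replicates 6, 7 and 8, and Krt7, Krt19, Epcam and Prom1 are at 0.50 or less in replicate 7.

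Sox9, the transcription factor that marks the ductal plate and adult ducts, was the best counted duct gene of the Control ASO livers. It had 122, 150, 86, 109 and 118 counts in Mboat7 ASO livers and 206, 129, 86, 86 and 90 counts in Control ASO livers. Replicate 1 of the Control ASO group stood above all other libraries, and 4 of 5 Mboat7 ASO libraries lay within the Control ASO range. The means were 4.09 ± 0.949 CPM in Mboat7 ASO livers and 4.66 ± 1.94 CPM in Control ASO livers, and the log2 fold change was -0.19 ± 0.26 (interval -0.75 to 0.37, adjusted p = 0.577). Without Control ASO replicate 1 the log2 fold change was 0.08 (adjusted p = 0.773). The interval for Sox9 is the narrowest of the 6 and excludes a change of 2-fold in either direction.

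Cftr, the chloride channel through which secretin-stimulated ducts release chloride, was close to the limit of detection. It had 2, 0, 3, 1 and 1 counts in Mboat7 ASO livers and 6, 2, 3, 3 and 2 counts in Control ASO livers. The sums were 7 counts in Mboat7 ASO livers and 16 counts in Control ASO livers, a ratio of 0.388 after scaling for depth. The 95% counting interval of 0.135 to 0.997 leaves out the spread between libraries. Fitted by edgeR with no filter on low counts, the log2 fold change of Cftr was -1.29 ± 0.61 (interval -2.61 to 0.02, adjusted p = 0.137). Control ASO replicate 1, the library with the most mesothelial RNA, was the highest of the 10 libraries for Krt19, Sox9 and Cftr alike.

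Cd24a, a small glycosylphosphatidylinositol-anchored sialoglycoprotein, was the exception. It had 167, 137, 88, 55 and 58 counts in Mboat7 ASO replicates 6 to 10 and 38, 48, 45, 61 and 38 counts in Control ASO replicates 1 to 5. Replicates 6, 7 and 8 stood above every Control ASO library, and replicates 9 and 10 lay within the Control ASO range. Cd24a averaged 3.50 ± 1.63 CPM in Mboat7 ASO livers and 1.80 ± 0.356 CPM in Control ASO livers (SD, n = 5 each). Its log2 fold change was 0.96 ± 0.31 (SE), which is 1.94-fold with a 95% interval of 1.21 to 3.10 (edgeR, adjusted p = 0.0308). The direction held under all 20 alternative settings, with log2 fold changes of 0.75 to 1.12 and adjusted p-values of 0.0115 to 0.0800. The call was lost in 6 of them. These were limma-voom (adjusted p = 0.0769) and the fits without Control ASO replicate 1 (0.0686), Control ASO replicate 3 (0.0570), Control ASO replicate 5 (0.0661), Mboat7 ASO replicate 6 (0.0800) or Mboat7 ASO replicate 7 (0.0730).

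Leukocyte and neutrophil markers were high in the same 3 libraries, and B cell and erythroid markers were not high in all 3. The 12 measured pan-leukocyte genes summed to 482, 376, 391, 181 and 211 CPM in Mboat7 ASO replicates 6 to 10, against 116 to 189 CPM in Control ASO livers. All 12 of them rose. Cd24a amounted to 0.807 to 1.38% of that sum in Mboat7 ASO livers and 1.01 to 1.63% in Control ASO livers, so the ranges of this share overlapped. The neutrophil genes, leaving out Lcn2 which hepatocytes also make, summed to 47.5, 42.5, 21.6, 4.77 and 3.42 CPM in Mboat7 ASO replicates 6 to 10 and to between 0.988 and 2.38 CPM in Control ASO livers. Of the 9 neutrophil genes that passed the filter, Lcn2 now among them, 8 rose by edgeR and 3 by limma-voom. Lcn2 was the gene that edgeR did not call. The 3 B cell genes kept held 2 that rose, and the measured B cell genes summed to 8.50, 4.72, 7.42, 5.03 and 4.05 CPM in Mboat7 ASO replicates 6 to 10 and 2.32 to 3.54 CPM in Control ASO livers. This sum was above the Control ASO range in every Mboat7 ASO library, in replicates 9 and 10 as in the others. Of 3 erythroid genes kept 2 rose by edgeR and 0 by limma-voom, where 0 also passed an unadjusted p of 0.05, and 5 of the 8 erythroid genes in the table had no count in any library. The erythroid genes summed to 105, 186, 132, 115 and 87.7 CPM in Mboat7 ASO replicates 6 to 10 and 104 to 179 CPM in Control ASO livers, so the groups overlapped and replicate 6 lay below replicate 9. The part of these cells in the Cd24a values was not tested. The sum of Krt7, Krt19, Epcam and Prom1 was 3.55, 1.40, 3.62, 2.38 and 3.22 CPM in Mboat7 ASO replicates 6 to 10, against 1.85 to 4.17 CPM in Control ASO livers. Among the 3 libraries with the most Cd24a, replicates 6 and 8 thus held the most duct RNA of their group and replicate 7 the least.

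**Figure D4:**
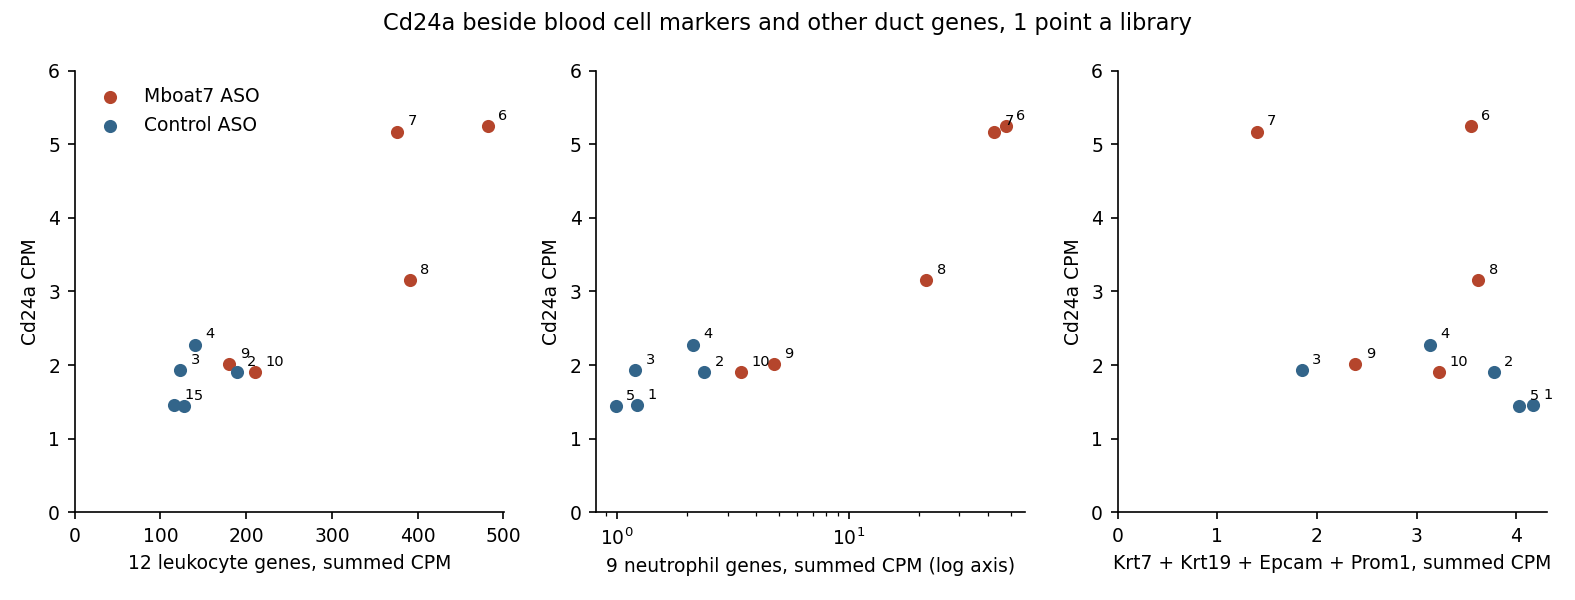
Cd24a CPM (vertical axes) against the summed CPM of 12 leukocyte genes, of 9 neutrophil genes (log axis) and of Krt7, Krt19, Epcam and Prom1, with a numbered point for each Mboat7 ASO library (red) and each Control ASO library (blue). Mboat7 ASO replicates 6, 7 and 8 hold the most Cd24a and the most leukocyte and neutrophil RNA, while replicate 7 has the lowest sum of duct genes, 1.40 CPM.

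The genes whose pattern over the 10 libraries was most like that of Cd24a, among 11834 with a mean of at least 1 CPM, were Phf11d, Cmtm7 and Nrros. Likeness was the root mean square distance between log2 CPM profiles centred on their Control ASO means, and these 3 lay at 0.24, 0.25 and 0.26. Each of them rose, with log2 fold changes of 0.83, 1.05 and 0.999. For Sox9 the nearest were Slc25a33, Ubox5 and Ttc30a1, at distances of 0.19, 0.21 and 0.22, and none of the 3 was called by edgeR.

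Per kilobase of the longest coding transcript, the order of mean levels in Mboat7 ASO livers was Cd24a (1.93 CPM per kb), Sox9 (0.989), Epcam (0.444), Krt19 (0.374), Prom1 (0.178), Krt7 (0.149) and Cftr (0.00761). In Control ASO livers it was Sox9 (1.13 CPM per kb), Cd24a (0.993), Krt19 (0.561), Epcam (0.499), Prom1 (0.185), Krt7 (0.179) and Cftr (0.0199). Neighbours in each order overlapped between libraries, except Krt7 and Cftr in both groups and Sox9 and Epcam in Mboat7 ASO livers. The transcript length of Krt7 is uncertain, since its annotated coding transcripts run from 642 to 4094 bases.

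The wider keratin list shares Krt7 and Krt19 with the duct set. Krt8 and Krt18, the keratin pair that hepatocytes and cholangiocytes both make, rose in Mboat7 ASO livers. Krt8 was 299, 227, 184, 211 and 271 CPM in Mboat7 ASO replicates 6 to 10 and 180, 182, 129, 149 and 120 CPM in Control ASO replicates 1 to 5, with no overlap (log2 fold change 0.65 ± 0.15, edgeR, adjusted p = 0.00826). Krt18 was 172 to 352 CPM in Mboat7 ASO livers and 151 to 230 CPM in Control ASO livers (log2 fold change 0.51 ± 0.18, adjusted p = 0.0464), and limma-voom did not call it (adjusted p = 0.0523). The call of Krt18 was also lost without Mboat7 ASO replicate 6, 7 or 10 or Control ASO replicate 3, 4 or 5, with adjusted p-values up to 0.113. Of the 5 keratins kept 2 rose and 0 fell, and 0 fell at an unadjusted p of 0.05 or by DESeq2 or limma-voom. Krt23 was 3.73 to 8.08 CPM in Mboat7 ASO livers and 4.21 to 15.5 CPM in Control ASO livers, with a log2 fold change of -0.15 ± 0.37 (adjusted p = 0.768).

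**Figure D5:**
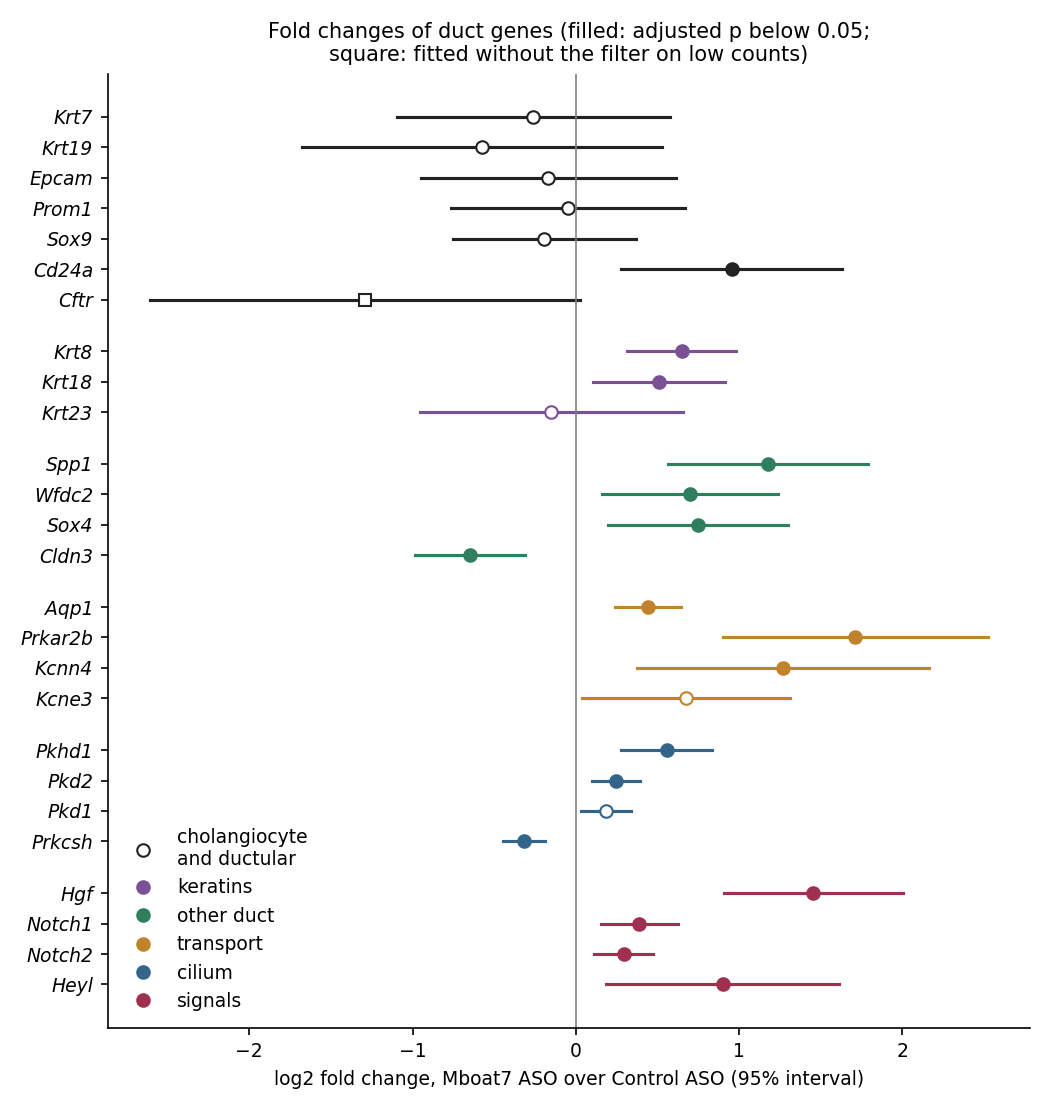
Log2 fold change of Mboat7 ASO over Control ASO livers (horizontal axis) with its 95% interval for the 7 cholangiocyte and ductular genes and for named genes of the keratin, duct, transport, cilium and signal lists, filled where the adjusted p was below 0.05. Of the first group only Cd24a is filled, and the square for Cftr is from the fit with no filter on low counts.

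Outside the 7 genes, 4 further lists of duct biology held 43 genes that passed the filter, of which 12 rose and 2 fell, and their median log2 fold change was 0.24. The corresponding backgrounds were 21.2% and 17.3% of all genes. Among 13 other cholangiocyte genes 3 rose and 1 fell, and the median was 0.10. Spp1, the secreted phosphoprotein osteopontin of cholangiocytes and also of macrophages, was 170, 67.8, 81.9, 70.6 and 118 CPM in Mboat7 ASO livers and 45.6, 65.7, 30.0, 47.8 and 35.2 CPM in Control ASO livers. The groups did not overlap, and the log2 fold change was 1.18 ± 0.28 (edgeR, adjusted p = 0.00839). All 12 macrophage genes passed the filter and 10 of them rose, their sum being 193 to 632 CPM in Mboat7 ASO livers and 110 to 246 CPM in Control ASO livers, and their part in the Spp1 value was not tested. Wfdc2, a secreted whey acidic protein domain protein of duct epithelia, rose by 0.70 ± 0.24 on the log2 scale (adjusted p = 0.0418) and Sox4, a transcription factor of biliary development, by 0.75 ± 0.25 (adjusted p = 0.0360). Both calls were lost without Mboat7 ASO replicate 6 or 8 or Control ASO replicate 1, 3 or 5, that of Wfdc2 also without Mboat7 ASO replicate 7 or 10, and that of Sox4 also without Control ASO replicate 4 and with the trend of fold change on transcript length removed, with adjusted p-values up to 0.0969 for Wfdc2 and 0.0954 for Sox4. Cldn3, a tight junction claudin of ducts and hepatocytes, fell to 50.8 to 62.2 CPM in Mboat7 ASO livers, against 62.7 to 115 CPM in Control ASO livers (log2 fold change -0.65 ± 0.15, adjusted p = 0.00826).

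In the list of biliary ion, water and bile acid transport 3 of 9 genes rose and 0 fell, and 0 fell at an unadjusted p of 0.05 or by DESeq2 or limma-voom. Aqp1, the water channel of duct epithelium and of endothelium, was 63.5 to 83.1 CPM in Mboat7 ASO livers and 45.7 to 58.7 CPM in Control ASO livers (log2 fold change 0.44 ± 0.09, edgeR, adjusted p = 0.00513). Of 8 endothelial genes 7 rose beside it, their sum being 195 to 273 CPM in Mboat7 ASO livers and 121 to 176 CPM in Control ASO livers, and their part was not tested. Prkar2b, a regulatory subunit of protein kinase A, had 27 to 89 counts in Mboat7 ASO livers and 11 to 19 counts in Control ASO livers (log2 fold change 1.71 ± 0.37). Kcnn4, a calcium-activated potassium channel of epithelia and blood cells, was 1.69, 1.51, 1.18, 0.514 and 0.724 CPM in Mboat7 ASO replicates 6 to 10 and 0.190 to 0.755 CPM in Control ASO livers (log2 fold change 1.27 ± 0.41, adjusted p = 0.0302). Replicates 6, 7 and 8 were again the high ones, as for Cd24a. The call of Kcnn4 was lost without any 1 of these 3 libraries and without Control ASO replicate 1, 3 or 5, with adjusted p-values up to 0.0767. Secretin receptor (Sctr) reads were few, 11 in all in Mboat7 ASO livers and 8 in Control ASO livers.

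Primary cilia of cholangiocytes sense bile flow, and loss of their proteins gives cystic ducts. In that list 2 of 10 genes rose and 1 fell. Pkhd1, which encodes fibrocystin, was 9.51 to 13.4 CPM in Mboat7 ASO livers and 6.08 to 9.69 CPM in Control ASO livers (log2 fold change 0.56 ± 0.13, edgeR, adjusted p = 0.00710). Pkd2, encoding polycystin 2, had a log2 fold change of 0.25 ± 0.07, and Prkcsh, the glucosidase II beta subunit, one of -0.32 ± 0.06. With the trend of fold change on transcript length removed, the adjusted p was 0.112 for Pkhd1 and 0.212 for Pkd2, and 4 of the list fell. With no normalization factor Prkcsh was at -0.16 (adjusted p = 0.0536).

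Among signals that shape ducts or the ductular reaction, 4 of 11 genes rose and 0 fell, and 0 fell at an unadjusted p of 0.05 or by DESeq2 or limma-voom. The largest change was that of Hgf, the growth factor that stellate and endothelial cells supply to epithelium. It was 7.85, 7.28, 5.70, 5.61 and 6.81 CPM in Mboat7 ASO replicates 6 to 10 and 2.03, 3.89, 1.16, 2.65 and 2.36 CPM in Control ASO replicates 1 to 5, with no overlap (log2 fold change 1.46 ± 0.25, edgeR, adjusted p = 0.00286). Of 12 stellate cell genes 9 rose, with a sum of 487 to 746 CPM in Mboat7 ASO livers and 248 to 467 CPM in Control ASO livers, and their part in the Hgf value was not tested. The receptors Notch1 (0.39 ± 0.11) and Notch2 (0.29 ± 0.08) and the Notch target Heyl (0.90 ± 0.33) were the others. With the length trend removed the adjusted p was 0.347 for Notch1, 0.859 for Notch2 and 0.0767 for Heyl. The call of Heyl was also lost with no filter on low counts (adjusted p = 0.0524) and without any 1 library except Mboat7 ASO replicate 9 and Control ASO replicate 2, with adjusted p-values up to 0.122. Jag1, the Notch ligand whose loss leaves the liver short of bile ducts, had a log2 fold change of 0.36 (adjusted p = 0.0651), and Hes1, a further Notch target, one of -0.37 (adjusted p = 0.327).

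Most markers of other tissues that could be cut with the liver did not pass the filter. Of 10 pancreatic acinar genes 1 passed the filter and fell, and 5 had no count in any library. Of 10 gallbladder and gut genes 3 passed and 1 fell, and 2 had no count. Hepatocyte genes were the most abundant list, with sums of 102960 to 143180 CPM in Mboat7 ASO livers and 143580 to 160960 CPM in Control ASO livers, and 5 of 9 fell while 1 rose.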

How the data were processed

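Mouse liver RNA was measured by single-end sequencing of 10 directional mRNA libraries. According to the methods and the submitters' processing notes, reads were cut with Trim Galore 0.3.3, inspected with FastQC 0.11.3 and placed on mm10 with STAR. The deposited values are raw counts per gene symbol from STAR's gene counting mode, whose strand column the sources used here do not give. Another 10 columns of the table fit no label and were left out.

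The 7 genes and all gene lists were chosen with earlier results of these data known, so list counts are descriptions. The genes named were these 7, Mboat7, up to 4 of lowest p in each duct list and the 3 nearest patterns. Krt23, Krt20, Tff3, Msln, Upk3b, Jag1, Hes1 and the duct genes named below the filter were chosen after their values were seen. Some list genes are not reported here by name, but they enter the counts.

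Genes with at least 1 CPM in at least 1 library were normalized by upper quartile and tested with edgeR 4.0.16 (quasi-likelihood, no covariate, Benjamini-Hochberg over all genes kept) in R 4.3.3, after the same code was tested on simulated data. Alternatives were TMM, RLE or no normalization factor, no filter or 1 CPM in at least 5 libraries, DESeq2 1.42.0, limma-voom (limma 3.58.1), edgeR's likelihood ratio test, a transcript-length trend removed per library (96.6% of genes had a length), each library left out in turn, and libraries 2 and 9 left out together. Between libraries of 1 group the chi-square over its degrees of freedom was 20.1 to 79.2, a spread beyond counting error. Each library was counted as a replicate, but this spread does not show that each came from a separate animal. One count in a library was worth 0.0314 to 0.0429 CPM. Counting intervals cover counting error only, since the reads carry no molecular identifiers and PCR copies are not separate molecules. Positions, lengths and the coding sequence come from GENCODE on GRCm38, the assembly of mm10.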

Additional observations from a re-analysis of the deposited data

Results flagged for a closer look

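A library far from the other 4 of its group was found in 4 of 64 groups of 5 (32 named genes in each of 2 groups), and none of these was a value of the 7 cholangiocyte and ductular genes. All 4 were values of Krt23, Krt20 or Tff3, which were chosen after their values were seen. The count of 4 therefore cannot be compared with a chance rate. Krt23 stood at 15.5 CPM in Control ASO replicate 2, against 4.21 to 5.85 CPM in the other Control ASO libraries. Krt20, a keratin of intestinal epithelium, stood at 0.993 CPM in the same library (25 counts), against 0 to 0.114 CPM in the other 4. Tff3, a secreted trefoil peptide of ducts and gut, was 4.97 CPM there, against 1.03 to 2.06 CPM. Among Mboat7 ASO livers Tff3 stood at 15.8 CPM in replicate 7 (419 counts), against 0.855 to 1.29 CPM in the others. That is the library with the fewest reads of Krt7, Krt19, Epcam and Prom1 together.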

How the results depend on the processing

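Of the 7 cholangiocyte and ductular genes the number called was 1, and it was 0 by limma-voom and with the call also required to pass 2-fold. With each library left out in turn it was 0 to 1. The number of all genes called (4851) stayed within 1.5 times under all 20 settings. For Cd24a the log2 fold change was 0.84 by limma-voom, not called, and 0.75 to 1.11 with each library left out. Some fold changes that missed the test in the main fit changed sign in other settings. Except for Pkd1, those given here missed the test in every setting. Epcam was 0.012 without libraries 2 and 9 together and -0.37 to 0.030 with each library left out. Sox9 was -0.34 to 0.082 with each library left out. Prom1 was 0.12 with no normalization factor, 0.11 without libraries 2 and 9, and -0.23 to 0.13 with each library left out. Krt7 and Krt19 kept a negative sign throughout. Pkd1 was -0.15 with the length trend removed, where it passed the test as lower, and in 3 other settings it passed as higher. Krt23 was 0.30 without libraries 2 and 9 and -0.28 to 0.38 with each library left out. Tff3 was -0.020 by limma-voom and -0.98 to 1.45 with each library left out, the lowest without Mboat7 ASO replicate 7. The cause of these shifts was not tested. With no normalization factor the median log2 fold change of all genes was 0.17, and 85.8% of calls were higher, against 55.0%. Of the signal list 2 genes rose with the length trend removed, and of the transport list 1 rose with the stricter filter, which tests fewer genes, and 5 with no normalization factor. No paired analysis was possible because the groups share no replicate number. Depth limits the duct genes: 1 count was worth 0.0314 to 0.0429 CPM, and Cftr could not be fitted with the filter on.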

Other observations

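Some genes that define duct epithelium elsewhere were barely counted in these livers. Cldn4, a claudin of duct tight junctions, had 5 counts in Mboat7 ASO livers and 13 in Control ASO livers, and Cldn7 had 58 in Mboat7 ASO livers and 47 in Control ASO livers. Mmp7, a metalloproteinase of injured ducts, had 25 counts in Mboat7 ASO livers and 12 in Control ASO livers. All of them failed the filter on low counts and were not tested.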
